A study of Caenorhabditis elegans with 2 samples.

Results

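The peaks described here are the autosomal MDL-1 peaks whose summit lay in the promoter window of a protein-coding gene, that is no more than 1000 bp before or 200 bp past an annotated transcript 5′ end, and not inside an intron. They were chosen by position in the authors' reproducible ("optimal") list, without use of peak height or sequence, and numbered 326 of the 1115 optimal peaks (29.2%, exact 95% confidence interval 26.6 to 32). Of the other optimal peaks, 246 were autosomal and intronic, 254 were autosomal and distal from promoters, and 289 lay on X. The same position rule was met by 5569 weaker regions of the pooled candidate list, which served as a comparison.

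Chromatin from whole Caenorhabditis elegans larvae of stage L4, the last before adulthood, was immunoprecipitated and sequenced in 2 biological replicates. Both came from strain OP355, with the genotype unc-119(tm4063) III; wgIs355, in animals of pooled sex carrying an insertion for mdl-1. The antibody label names mdl-1, whereas a note on a C-terminal GFP-FLAG fusion names KLU-1, a Krüppel-type zinc finger protein, so the labels disagree on the tagged protein. There was 1 group, no second condition and no control library used here, the read depth is unknown, and in whole animals the tissue in which a site was bound cannot be told.

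MDL-1 is a worm relative of the mammalian Mad proteins, basic helix-loop-helix leucine zipper factors that pair with a Max-type partner, MXL-1 in the worm, and bind E-boxes, of which CACGTG is the canonical form. Mad proteins are known as repressors that share their sites with Myc-type activators, and Myc-type factors are known for acting on ribosome and growth genes. In C. elegans many annotated 5′ ends are not transcription start sites, because most messages receive a spliced leader that replaces the original 5′ end, and many genes lie in operons or head to head with a neighbour. A divergent promoter is here an interval with a minus-strand gene and a plus-strand gene that both have the summit in their window and point away from each other, and a single promoter has 1 gene.

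The sequences at the summits show the words on which the comparisons below rest. Each is the 101 bp centred on a summit, read 5′ to 3′ on the plus strand of the RefSeq genome sequence of WBcel235 (ce11), with the word in capitals wherever it or its reverse complement occurs. The first 3 are the strongest windows shown with the E-box CACGTG.
tos-1 (chrV:9344214-9344314): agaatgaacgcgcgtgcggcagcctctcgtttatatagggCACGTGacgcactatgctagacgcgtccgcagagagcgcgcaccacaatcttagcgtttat
ipla-6/mif-4 (chrIV:6336806-6336906): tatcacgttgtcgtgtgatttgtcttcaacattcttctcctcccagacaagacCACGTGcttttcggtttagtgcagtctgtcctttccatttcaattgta
adh-1 (chrV:11888146-11888246): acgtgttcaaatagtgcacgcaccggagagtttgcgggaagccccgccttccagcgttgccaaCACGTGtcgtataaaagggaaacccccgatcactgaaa
The next pair holds the GA repeat GAGAGA on the minus strand, so that it reads TCTCTC here.
cbp-1 (chrIII:9765646-9765746): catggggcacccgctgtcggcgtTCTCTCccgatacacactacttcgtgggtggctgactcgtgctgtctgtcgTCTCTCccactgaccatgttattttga
C09E9.1 (chrIV:1274708-1274808): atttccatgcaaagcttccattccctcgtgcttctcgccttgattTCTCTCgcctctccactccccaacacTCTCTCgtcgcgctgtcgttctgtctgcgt
The next 3 hold GAGACGCAG, a word picked after the values were seen.
hlh-11 (chrIII:9619159-9619259): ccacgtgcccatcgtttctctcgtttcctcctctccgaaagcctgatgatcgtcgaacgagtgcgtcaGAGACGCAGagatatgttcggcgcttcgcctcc
lin-23 (chrII:6370293-6370393): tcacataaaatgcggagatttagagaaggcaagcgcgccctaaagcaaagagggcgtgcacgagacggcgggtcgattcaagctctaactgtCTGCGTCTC
ogt-1 (chrIII:7153980-7154080): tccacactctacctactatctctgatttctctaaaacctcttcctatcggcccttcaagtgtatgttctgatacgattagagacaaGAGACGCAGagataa
The last 3 come from ribosomal protein promoters and hold ACCGTA, also picked after the values were seen.
rps-1/ifet-1 (chrIII:4475602-4475702): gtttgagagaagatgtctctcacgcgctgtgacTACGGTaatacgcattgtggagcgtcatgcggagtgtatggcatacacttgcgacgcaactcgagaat
rpl-15/K11H12.8 (chrIV:654872-654972): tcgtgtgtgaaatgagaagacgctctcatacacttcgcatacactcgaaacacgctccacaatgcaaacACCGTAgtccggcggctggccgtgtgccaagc
rpl-3 (chrIII:3867520-3867620): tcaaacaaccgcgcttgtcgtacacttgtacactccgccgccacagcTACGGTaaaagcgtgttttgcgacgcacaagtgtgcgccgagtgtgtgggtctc

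The strongest promoter peaks stood at genes of unlike function. Signal here is a score from the peak caller that the authors ran. Its scale differs between lists, so values are compared only within a list. The median signal of the promoter peaks was 69.3 in the pooled data, from 48.23 to 309.6. The medians of the other classes of optimal peak were somewhat higher, at 73.77 for autosomal intronic, 70.35 for autosomal distal and 76.97 for X peaks. Their highest signals were 362.4, 508.3 and 700.7, in the same order. Promoter peaks were 18 of the 100 strongest optimal peaks (18%), 9 of the 50 strongest (18%) and 4 of the 25 strongest (16%). Among all optimal peaks their share was 29.2%.

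The highest pooled signal, 309.6, was at dpsm-1 on chromosome I, with its summit 307 bp upstream and a signal of 224.9 in replicate 1 and 86.55 in replicate 2. The peak at tos-1, a gene long used to follow alternative splicing, had 305.1 in the pooled data, 210.6 in replicate 1 and 93.98 in replicate 2, with the summit 61 bp upstream of the 5′ end of WBGene00019466 on the minus strand of chromosome V. The ipla-6/mif-4 peak, between a predicted phospholipase gene and a gene related to macrophage migration inhibitory factor, had a pooled signal of 268.2. These 3 peaks ranked between 11 and 31 in both replicate lists, and each held CACGTG.

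Next came srh-2, a chemoreceptor gene of the serpentine class, with a pooled signal of 266.1 and a summit 109 bp downstream of the 5′ end in the 5′ UTR. The peak between tasp-1, a threonine aspartase gene, and K01G5.10 had 247.2. The cbp-1 peak, at the gene of the CBP/p300 histone acetyltransferase (WBGene00000366), had 235 with its summit 813 bp upstream. None of these held CACGTG, and the srh-2 and cbp-1 windows held GAGAGA.

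The adh-1 peak, at an alcohol dehydrogenase gene (WBGene00010790), had a pooled signal of 226 and its summit 52 bp upstream. H41C03.3 followed with 213.8, R13A5.7 with 211.6 and C09E9.1 with 202.6. Further down the 25 strongest were iff-2/F54C9.14 with 190.2, where iff-2 encodes translation factor eIF5A, and rps-1/ifet-1 with 184.5, where ifet-1 encodes an eIF4E-binding repressor of translation. The list went on with ubql-1/pdi-3 (ubiquilin and a protein disulfide isomerase) at 179.7 and egl-30/C53H9.4 at 178.9, where egl-30 encodes the Gq alpha subunit. The basic helix-loop-helix factor gene hlh-11 had 177.1, and its window held CACGTG and GAGAGA as well as GAGACGCAG.

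The remaining peaks of the 25 strongest ran from 169.1 at ubc-25, a ubiquitin-conjugating enzyme gene, to 148.5 at vps-25, a gene of the ESCRT-II sorting complex. They were at F56C9.10, ndk-1/F25H2.6 (a nucleoside diphosphate kinase gene), rsbp-1, lin-23 (an F-box gene), W06H8.6, ska-3/rps-12, Y39E4B.6 and mdt-26/ift-43 (a Mediator subunit and an intraflagellar transport gene). In the 25 strongest promoter peaks 8 windows held CACGTG, 7 held GAGAGA and 4 held GAGACGCAG. Among all 326 promoter peaks the shares were 16.3%, 35.3% and 16.3%. The median signal was 89.2 for the promoter peaks with CACGTG, against 68.34 for those without it. The stronger 163 of the promoter peaks held 31 of the CACGTG windows and the weaker ones 22. GAGAGA was in 58 of the stronger and 57 of the weaker, and GAGACGCAG in 26 and 27.

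Most promoter summits lay in intergenic DNA short of the 5′ end. Of the 326 summits, 291 were intergenic, 27 in a 5′ UTR, 5 in a coding exon and 3 in a 3′ UTR. The median distance to the nearest 5′ end was 239.5 bp, and the nearest 5′ end was downstream of the summit in 290 of the peaks. The rule bounds this distance, leaves out introns and reaches farther upstream than downstream, so all these counts are partly set by it. The distribution of the distance was therefore set against the other places that meet the rule. From 250 to 101 bp upstream lay 27.6% of the promoter peaks (22.8 to 32.8), against 19.6% of the weaker candidates and 14% of the 845890 autosomal positions sampled that meet the rule. From 0 to 200 bp downstream lay 8.9% of the promoter peaks (6.04 to 12.5), against 14.5% of the weaker candidates and 19% of the positions. These differences were not tested.

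**Figure D1:**
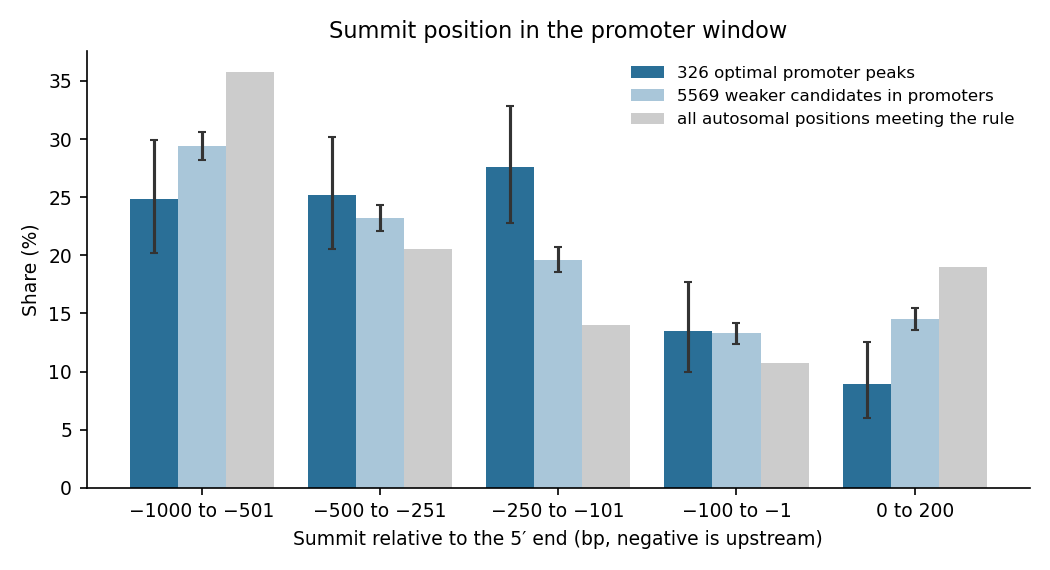
Share of summits in 5 distance ranges from the 5′ end (x axis, bp, negative is upstream; y axis, %) for the 326 promoter peaks, 5569 weaker candidates and all sampled autosomal positions that meet the rule. Error bars are exact 95% binomial intervals; the share of promoter peaks is highest, at 27.6%, from 250 to 101 bp upstream.

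At the edges of the window, the K11D12.13 summit lay 995 bp and the adah-1 summit 982 bp upstream, just inside, with signals of 109.5 and 52.79. The slc-17.2 summit at 1008 bp upstream and the ech-2 summit at 1020 bp upstream fell just outside, with signals of 57.06 and 59.62. On the downstream side the R02D5.9 summit lay 185 bp past the 5′ end, with a signal of 108.3. The share of a chromosome's optimal peaks that met the rule ran from 31.4% on IV (48 peaks) to 45.7% on I (63 peaks).

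Divergent promoters held 25.5% of the promoter peaks, a larger share than among weaker candidates. Of the 326 peaks, 83 were at divergent promoters (25.5%, 20.8 to 30.6), 234 at single promoters (71.8%) and 9 in windows shared by genes in another arrangement. The divergent share was 14.1% among the weaker candidates under the same rule (784 of 5569; Fisher's exact test, two-sided, p = 1.8e-07, a test added after the data were seen) and 11.1% among all positions that meet the rule. The weaker candidates below the authors' threshold were kept out by signal, and 5.53% of the pooled candidates that meet the position rule were in the optimal list. Neighbouring peaks are not independent, which the test does not take into account. The shares of the weaker candidates and the positions were computed under the main window and definition only.

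Divergent and single promoter peaks had close median signals. The median was 70.01 at divergent promoters (48.25 to 268.2) and 68.81 at single promoters (48.23 to 309.6). The nearest 5′ end of any gene was at a median of 168 bp at divergent promoters and 292 bp at single promoters, where only 1 gene has the summit in its window. At divergent promoters the 5′ ends of the gene pair were a median of 579 bp apart, from 15 bp at F25H9.7/F25H9.6, named after its value was seen, to 1659 bp at ipla-6/mif-4, and 64 of the 83 pairs were within 1000 bp. The summit lay between the 5′ ends in 75 of 83 and in the middle of 3 equal parts of the interval in 36 (43.4%, 32.5 to 54.7). The rule keeps the summit within 1000 bp of both 5′ ends, which forces it towards the middle of the longest intervals. These shares are thus partly set by the rule.

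The 10 strongest divergent promoters differed in where the summit stood. At ipla-6/mif-4 it was 797 bp from the nearer and 862 bp from the farther 5′ end. In so long an interval the rule allows only a place near the middle. At tasp-1/K01G5.10 it was 65 bp from tasp-1 and 720 bp from K01G5.10, and at iff-2/F54C9.14 it was 61 bp from iff-2 and 874 bp from F54C9.14. At rps-1/ifet-1 it was 266 bp from rps-1 (WBGene00004470) and 502 bp from ifet-1. At ndk-1/F25H2.6 (164) the summit was 38 bp from ndk-1 and 415 bp from F25H2.6, whereas at ska-3/rps-12 (157) it was 131 and 162 bp from the pair. At mdt-26/ift-43 the summit was 12 bp inside mdt-26. The others were ubql-1/pdi-3, R107.5/cls-2 (136.3; cls-2 encodes a CLASP microtubule protein) and rpl-15/K11H12.8 (135.3). A peak at such a place does not show which of its genes it acts on.

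**Figure D2:**
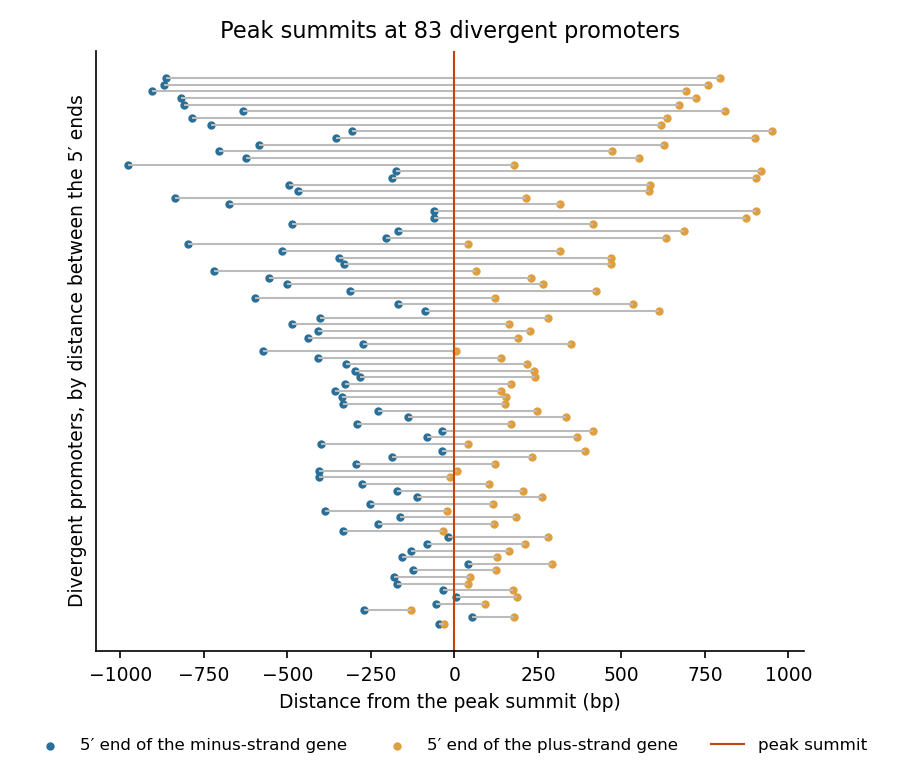
Each line is 1 of the 83 divergent promoters, ordered by the distance between the 5′ ends, with the peak summit at 0 and the 5′ ends of the minus-strand and plus-strand genes as points (x axis, bp). The summit lies between both points in 75 of the 83, and the distances run from 15 to 1659 bp.

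The promoter peaks had 409 genes in their windows, 2.37% of the 17242 autosomal protein-coding genes. Single promoters gave 225 of these genes and divergent ones 167, and 14 genes had more than 1 peak. A gene-class symbol, given to named genes, was carried by 66.3% of the genes with a peak, against 55.4% of all autosomal protein-coding genes. The gene lists that follow were made with earlier results of these data known. They are described by counts beside the share of 2.37%, with no test. Most lists were drawn by gene-class symbol, so they are partial and a gene of the same function under another symbol is not counted.

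Ribosome genes had the largest count of the 31 lists. Of 76 autosomal cytosolic ribosomal protein genes, 12 had a promoter peak (15.8%, 8.43 to 26), 7 of them at divergent and 5 at single promoters. The rps-1 peak had a signal of 184.5 in the pooled data, 120.6 in replicate 1 and 63.98 in replicate 2. The rps-12 peak had 157 in the pooled data, 93.86 in replicate 1 and 65.68 in replicate 2. The rpl-15 peak had 135.3 pooled, 96.15 in replicate 1 and 44.51 in replicate 2, and the rpl-3 peak had 120.8 pooled, 90.37 in replicate 1 and 32.94 in replicate 2. These 4 were among the 405 strongest regions of each replicate.

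The other 8 ribosomal protein peaks were weaker, from 77.8 at rpl-1 to 49.39 at rps-21. Of the 12 summits, 9 lay from 250 to 350 bp upstream of the ribosomal protein gene, against 60 of the other 411 gene and peak pairs (14.6%), a range picked after the values were seen. The median was 297 bp upstream for the ribosomal protein genes and 288 bp for the other pairs. CACGTG was in 1 of these 12 windows and GAGAGA in 1, and GAGACGCAG was in 0. ACCGTA was in 6 of the 12 windows, against 15 of the 314 other promoter peaks (4.78%). Under each setting tried that kept the whole optimal list's size, the count of ribosomal protein genes stayed at 11 or 12.

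Other translation genes were on both sides of the background share. Of 39 translation factor genes, iff-2 and eef-1A.1 (elongation factor 1 alpha, 57.18) had a peak (5.13%), as did 1 of 70 mitochondrial ribosomal protein genes (1.43%; mrps-7, 61.95). No peak was found at 32 tRNA synthetase genes, which allows a share of up to 9.38% by a limit of 3 genes and 10.9% by the exact interval, but with the strongest regions of replicate 2 alone 2 of them had one.

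Genes of membrane traffic had a peak at 10 of 89 (11.2%, 5.52 to 19.7). They include vps-25 (148.5), rab-7 of late endosomes (114.7, in a divergent promoter shared with W03C9.5 and mex-1), sec-61.G of the protein translocon (90.91) and rab-5 of early endosomes (87.87). Of these 10, 6 were at divergent promoters, at some of which the summit was nearer to the other gene. Some of these peaks are also counted in the ribosomal protein or cell cycle list. With a window of 500 bp upstream and 100 bp downstream the count of membrane traffic genes was 6. With the strongest regions of replicate 2 alone the count was 5, and with those of replicate 1 alone it was 8.

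Autophagy genes had peaks at 4 of 27 (14.8%, 4.19 to 33.7), all at single promoters. The atg-9 peak, at the gene of the membrane protein of autophagy vesicles, had 95.75 in the pooled data, with 64.52 in replicate 1 and 31.75 in replicate 2. The atg-18 peak, at a gene of the early autophagy machinery, had 54.06. Of 25 ubiquitin conjugation genes 3 had a peak, ubc-25 (169.1), ubc-3 (85.25) and ubc-6 (58.49), and of 17 vacuolar ATPase genes 2 had one, vha-13 (56.65) and vha-1 (49.5). Among vacuolar ATPase genes the count was 0 with replicate 2 alone and 1 with replicate 1 alone.

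Regulators with promoter peaks included stress factors and nuclear hormone receptors. Of 16 stress and longevity regulators 3 had a peak (18.8%, 4.05 to 45.6), namely xbp-1 of the unfolded protein response (100.8, summit 27 bp inside), nhr-49 of fatty acid metabolism (95.18) and the FOXO gene daf-16 (71.9). Of 247 nuclear hormone receptor genes 10 had one (4.05%, 1.96 to 7.32), led by nhr-135 (121), nhr-58 (101.7), nhr-49 and nhr-68 (64.83). hlh-11 was the only 1 of 31 basic helix-loop-helix genes (2 with replicate 2 alone), and par-5, a 14-3-3 gene (76.29), joined daf-16 among 20 insulin and TOR signalling genes. The cell cycle list had 3 of 65, with cdc-48.1 (97.06), lin-35, the retinoblastoma gene (49.35), and cdk-7 (48.41).

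Chaperone genes of the hsp, dnj and cct classes had 3 of 54, with cct-1 (73.49), hsp-1 (70.67) and dnj-12 (56.28). Histone genes had 3 of 76, with his-37 (100.7), and his-35 and his-41 that share 1 peak (51.65). The proteasome list had 2 of 33, rpn-13 (55.72) and pas-5 (49.56), and the splicing list 2 of 42, snr-4 (104.6) and rsp-8 (74.1). The respiratory chain list had 2 of 45, nduf-2.2 (117.6) and cox-5A (70.48). The pas-5 and snr-4 summits also lay beside RNA genes, as given below. Outside these lists by symbol, and named after their values were seen, were peaks at enpl-1, an endoplasmic reticulum chaperone gene (94.65), and at the complex I genes ndub-8 (83.38) and ndua-8 (59.09). With replicate 1 alone, chaperones and histones had 1 gene each and the proteasome 0, and with replicate 2 alone the proteasome had 1.

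Large environmental and structural families were at or near 0. Of 1275 chemoreceptor genes 2 had a peak (0.157%, 0.019 to 0.565), srh-2 and srh-17 (123.7), although srh-2 was among the strongest. Of 305 F-box genes of the fbxa, fbxb and fbxc classes 1 had a peak, fbxa-83, whose summit also lay beside an RNA gene, as given below. The gene lin-23, which also encodes an F-box protein, is outside these classes. Of 237 C-type lectin genes 1 had a peak, clec-140, which shares its peak with hmg-11. No peak was found at 144 collagen genes, which allows a share of up to 2.08% by a limit of 3 genes and 2.53% by the exact interval, or at 106 neuropeptide and insulin genes, which allows up to 2.83% and 3.42% by the same limits. The lists for mitochondrial import (13 genes) and the nuclear pore (26 genes) were also at 0. Marker genes of intestine (13), body wall muscle (13), pharynx (12) and hypodermis (11) had none. Those of neurons had 1 of 23 (egl-21, 81.89) and of germline 1 of 31 (cgh-1, 103.2). The upper limits of the exact intervals for these short lists ran from 16.7% to 28.5%, so the counts do not tell whether any tissue is favoured. With replicate 2 alone, collagens and the nuclear pore had 1 gene each, neurons 2, and F-box and C-type lectin genes 0.

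**Figure D3:**
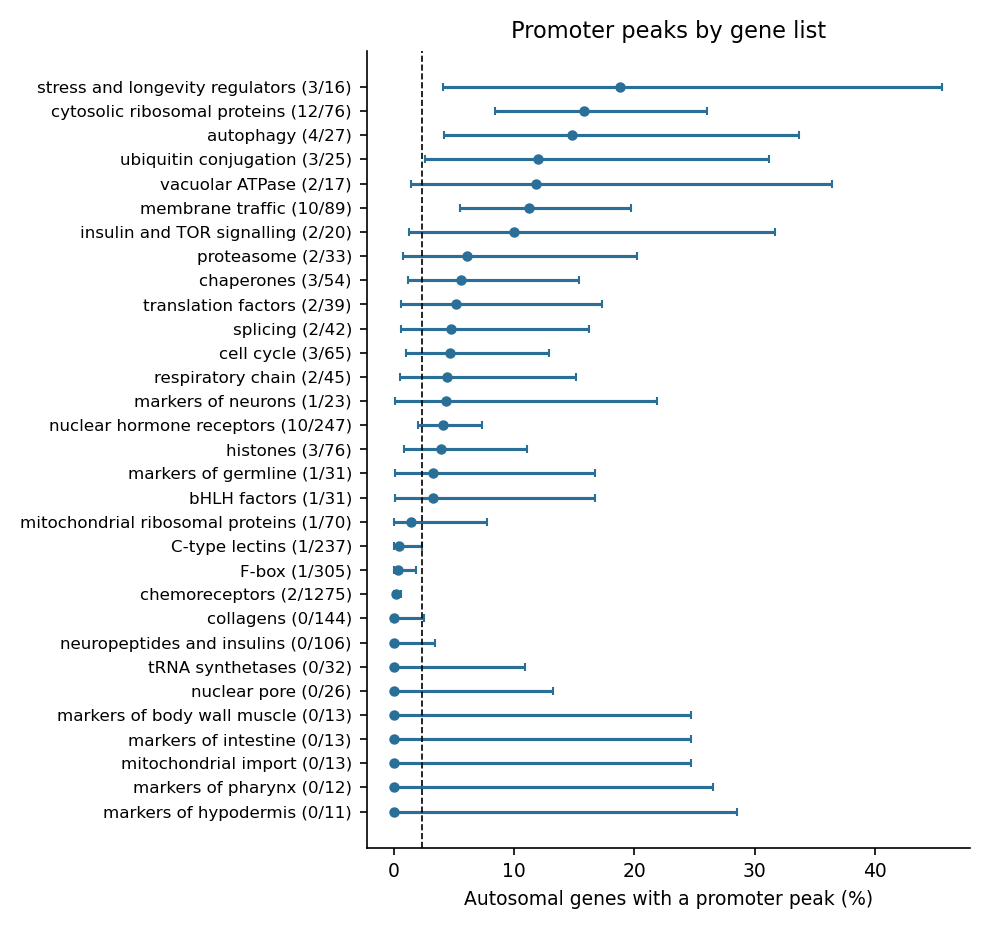
Share of autosomal genes in each of 31 lists with a promoter peak (x axis, %), with counts beside each name and exact 95% binomial intervals. The dashed line is the 2.37% of all autosomal protein-coding genes; cytosolic ribosomal proteins have 12 of 76 and collagens 0 of 144.

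The mdl-1 gene lies on X and so outside the rule, and mxl-1, the gene of the partner of MDL-1, had no promoter peak. The optimal summit nearest to mdl-1 was 2827 bp upstream with a signal of 215.6. The optimal summit nearest to mxl-1, on chromosome V, was 15884 bp upstream.

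E-boxes and GA repeats were concentrated at the summits of promoter peaks. CACGTG, searched in 101-bp windows and a palindrome, so the same on both strands, was in 53 of 326 promoter peaks (16.3%, 12.4 to 20.7). Flanks were centred 500 bp downstream of the summit on the plus strand of the genome, whatever the strand of the gene. CACGTG was in 2.45% of them (exact McNemar test, two-sided, with Benjamini-Hochberg adjustment over 10 words, adjusted p = 4.5e-09). Among the weaker candidates 3.48% held it (Fisher's exact test, adjusted p = 4e-18), and among windows centred 250 bp upstream of all 17242 autosomal genes 1.57%. Of the 55 copies of CACGTG in the promoter peaks, 22 were centred within 15 bp of the summit. An even spread over the 101-bp window would also place copies there, and the count was not tested against it. The rule used no sequence, but the optimal list was cut by signal, so the weaker candidates differ from the promoter peaks in signal too.

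GAGAGA, searched on both strands, was in 115 of 326 promoter peaks (35.3%, 30.1 to 40.7), against 5.21% of flank windows (adjusted p = 1.5e-19, exact McNemar test), 9.84% of weaker candidates (Fisher's exact test, adjusted p = 1.4e-31) and 6.22% of all autosomal promoters. At single promoters that held it, the word was on the strand of the gene in 29, on the other strand in 49 and on both in 4. CACGTG and GAGAGA occurred together in 13 promoter peaks, and 171 held neither. The GC content had a median of 48.51% at promoter summits, 35.64% in their flanks and 34.65% in weaker candidates, and its part in these differences was not tested.

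Other GC-rich preset words were also more frequent at summits, and AT-rich ones less. GGGCGG and GCGTGG, words of a kind bound by zinc finger proteins, occurred in 8.59% and 4.91% of summit windows and in 2.45% and 1.23% of flank windows (adjusted p = 0.002 and 0.013, exact McNemar test). CACGCG occurred in 11% of summit windows and 0.92% of flank windows (adjusted p = 9e-08, exact McNemar test). TTTCAG, which resembles a splice acceptor, was in 5.52% of summits and 25.2% of flanks (adjusted p = 7.8e-12, same exact test), and TTTTTT in 20.6% of summits and 40.2% of flanks (exact test, adjusted p = 1.9e-07). TATAAA was in 5.83% of summits and 12.3% of flanks (exact test, adjusted p = 0.011), TGATAA in 4.29% and 9.51% (exact test, adjusted p = 0.013), and CAGCTG in 3.07% and 3.68%, which did not pass (exact test, adjusted p = 0.82). Among the windows of all autosomal promoters the shares were 2.2% for GGGCGG, 1.37% for GCGTGG, 1.68% for CACGCG, 18.4% for TTTCAG, 45.4% for TTTTTT, 13% for TATAAA, 10.5% for TGATAA and 1.83% for CAGCTG.

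No preset word told promoter peaks from the other autosomal optimal peaks. CACGTG was in 16.3% of promoter peaks and 21.4% of the other autosomal optimal peaks (difference −5.14 percentage points; Fisher's exact test, adjusted p = 0.24). GAGAGA was in 35.3% of promoter peaks and 43.2% of the others (difference −7.92; Fisher's exact test, adjusted p = 0.12). Nor did one pass between promoter kinds, as CACGTG was in 12% of divergent (5.93 to 21) and 17.9% of single promoter peaks (13.3 to 23.5; Fisher's exact test, adjusted p = 0.89), and GAGAGA in 32.5% of divergent and 35% of single ones (Fisher's exact test, adjusted p = 0.91). A p above the threshold does not show that the shares are equal.

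**Figure D4:**
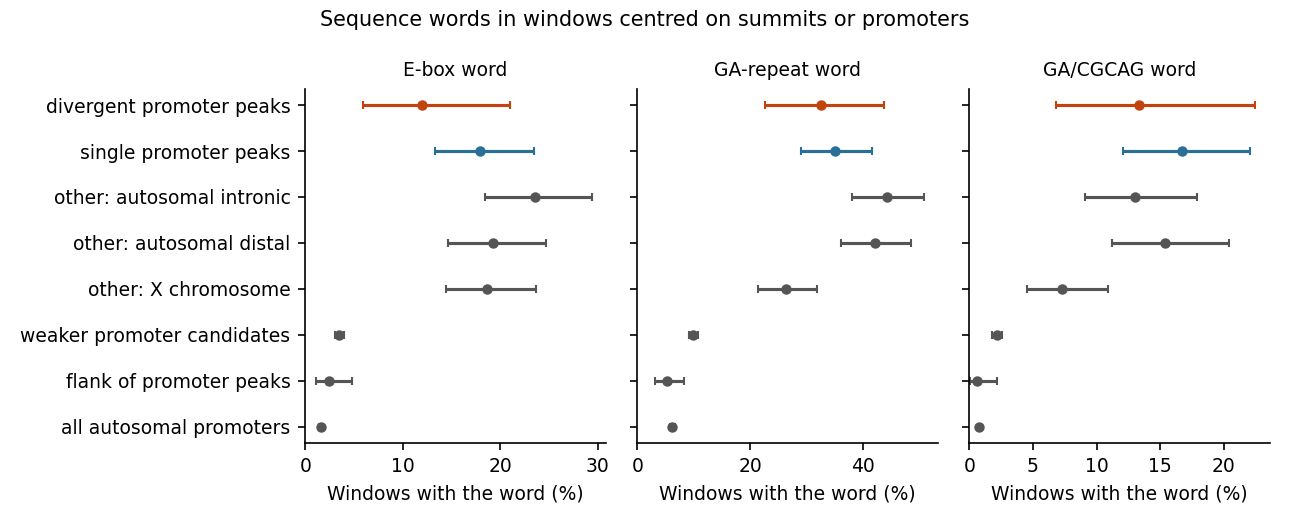
Share of 101-bp windows (x axis, %) with CACGTG (E-box word), GAGAGA (GA-repeat word) and GAGACGCAG, for divergent and single promoter peaks, the other optimal peaks, weaker candidates, flanks and windows 250 bp upstream of all autosomal genes. Flanks lie 500 bp downstream on the plus strand of the genome. Bars are exact 95% binomial intervals. Promoter peaks stand above the weaker candidates, flanks and all promoters; for GAGACGCAG, X peaks are lower, at 7.27%.

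All 2080 hexamers, each merged with its reverse complement, were then scanned, a step added after the data were seen. Between summits and flanks 173 were more frequent at summits (8.32% of those tested) and 142 less frequent (6.83%), with GAGAGA first among the higher ones and AGACGC close behind (23.6% of summit windows and 2.15% of flank windows; adjusted p = 5.1e-15, exact McNemar test). Hexamers within GAGACGCAG filled several of the next places, which led to that longer word. GAGACGCAG was in 53 promoter peaks (16.3%), 2.17% of weaker candidates, 0.613% of flanks and 0.777% of all autosomal promoters. It was in 13% of autosomal intronic, 15.4% of autosomal distal and 7.27% of X peaks. It occurred with GAGAGA in 28 promoter peaks and with CACGTG in 4, and 149 promoter peaks held none of these 3 words.

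Promoter peaks and other autosomal optimal peaks differed in 1 of the 2080 hexamers (0.0481%). ACGCAA was in 7.06% of promoter peaks and 1% of the others (Fisher's exact test, adjusted p = 0.0081). It was also in 6.23% of X optimal peaks and 3.29% of all autosomal promoters. In this scan 162 hexamers had an unadjusted p under 0.05. Between promoter kinds 1 of 2080 passed (0.0481%), CAATCC, in 8 of 83 divergent and 0 of 234 single promoter peaks (Fisher's exact test, adjusted p = 0.035) and 2.49% of all autosomal promoters, with 102 at an unadjusted p under 0.05. ACCGTA was in 14.5% of divergent and 3.42% of single promoter peaks, which did not pass (Fisher's exact test, adjusted p = 0.52), and in 3.13% of all autosomal promoters.

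Both replicates contained all 326 promoter peaks among their candidates, counting an overlap of 1 bp or more with lists of 30000 regions. The optimal peaks were the strongest candidates of both replicates pooled, cut by the authors for reproducibility. High ranks in each replicate were thus partly built in, and the shares below only describe them. Within the 1115 strongest regions of each replicate list, 204 promoter peaks were in both (62.6%, 57.1 to 67.8), 71 in replicate 1 only, 38 in replicate 2 only and 13 in neither. The share in both was 63.9% at divergent and 62.8% at single promoters, 65.4% of autosomal intronic, 61.8% of autosomal distal and 67.5% of X peaks. Some close peaks shared a replicate region: 16 promoter peaks formed 8 pairs with summits 199 to 300 bp apart, so the weaker of such a pair takes the rank of the stronger. Without the 31 promoter peaks that had another optimal summit within 1000 bp, 176 of 295 were in both (59.7%).

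A few promoter peaks ranked very differently in the replicates. Of those 295, 7 ranked over 10 times lower in replicate 2 and 1 in replicate 1, and they are named here after their values were seen. The sor-1 peak ranked 174 in replicate 1 and 9799 in replicate 2, and the H12C20.7/nhr-68 peak 382 and 14468. The EGAP1.1 peak ranked 562 and 19424, and the fbxa-83 peak 719 and 19236. The adah-1 peak ranked 5877 in replicate 1 and 539 in replicate 2. Values at these promoters, nhr-68 and fbxa-83 among them, were thus high in 1 library only.

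**Figure D5:**
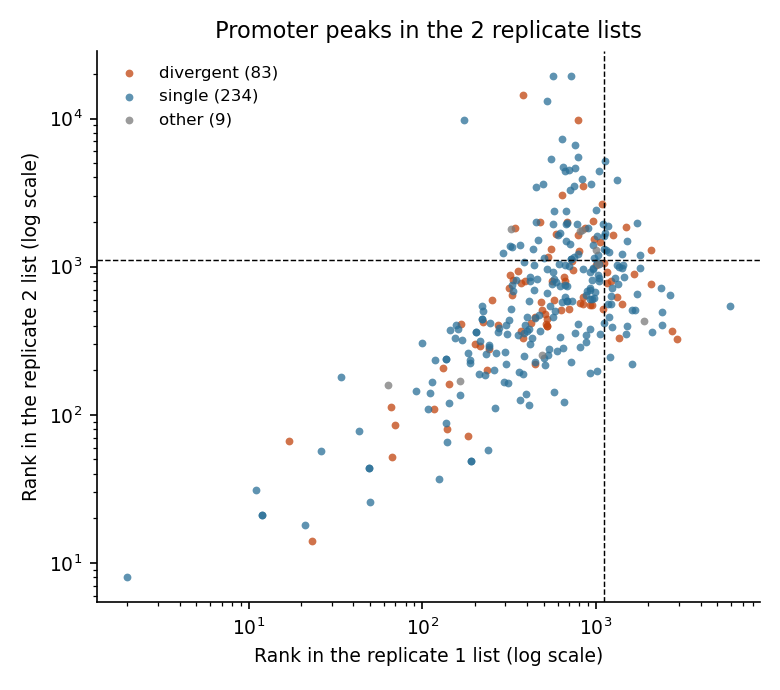
Rank of each promoter peak in the list of replicate 1 (x axis) and of replicate 2 (y axis), both on log scales, for divergent, single and other promoters; dashed lines mark rank 1115. The lower left quadrant holds 204 of the 326 peaks.

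Some promoter summits stood beside RNA genes, which the rule did not use. A small nuclear RNA gene, a class that here includes spliced leader RNA genes, lay within 200 bp of 7 promoter summits (2.15%, 0.868 to 4.37), against 1.2% of the other autosomal optimal peaks and 0.18% of weaker candidates. A small nucleolar RNA gene did so for 7 (2.15%), against 3.8% of the other autosomal optimal peaks and 0.395% of weaker candidates. Genes of tRNA and miRNA did so for 2 each (0.613%). The shares were 1% and 0.8% among the other autosomal optimal peaks and 0.413% and 0.144% among weaker candidates. The strong H41C03.3 peak was beside sls-2.1, a spliced leader RNA gene, with the H41C03.3 5′ end 949 bp away. A weaker H41C03.3 peak (65.19) lay beside the same RNA gene, and the F38E11.9 peaks (96.49 and 48.94) both lay beside F38E11.11. The 7 summits beside small nuclear RNA genes thus include pairs at the same RNA gene, which the interval does not take into account. Of 18 annotated autosomal sls-2 genes 3 had a promoter peak within 200 bp (sls-2.1, sls-2.4 and sls-2.8) and 5 had any optimal summit there. Of the 12 annotated autosomal sls-1 genes none had one. Several sls-1 entries carry the same symbol, and whether reads can be placed at each of them is unknown. The families were not compared by a test. Some genes counted in the lists above also had their summit within 200 bp of an RNA gene. They were snr-4 (small nuclear RNA gene T11F9.15), eef-1A.1 (miRNA gene cel-mir-5549), and fbxa-83 and pas-5 (small nucleolar RNA genes Y67A10A.14 and F25H2.15). These RNA genes were named after the values were seen, and the signal at such sites cannot be assigned to the coding gene or the RNA gene.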

How the data were processed

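Peak lists of 2 replicates, of the pooled data and of the optimal set on build ce11 were used. Per the notes deposited with the libraries, the authors made a candidate list from each replicate and from the pooled data, and kept the optimal set by the irreproducible discovery rate (IDR). Which aligner and peak caller were run, and the IDR threshold, is not given in the sources used here. The signal of each region and its −log10 q-value are the authors' values, and regions were ranked by the deposited signal alone. Summits came from the deposited offset. The optimal list was the 1115 regions of highest signal among 30000 pooled candidates.

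Transcript 5′ ends, exons and UTRs came from Ensembl release 115 (WBcel235), the same assembly as ce11, and an intron is a place inside a gene and outside all its exons. Words were searched on both strands 50 bp each side of summits. Shares were compared with Fisher's exact test or, against flanks 500 bp downstream on the plus strand of the genome, the exact McNemar test. Both were two-sided with Benjamini-Hochberg adjustment and 0.05 as the threshold. Replicate ranks are those of the best overlapping region (at least 1 bp). Intervals are exact (Clopper-Pearson) and cover counting error only. The tests compare peaks within 1 group, not samples. Software was scipy 1.17.1, pandas 2.3.3, numpy 2.4.6 and Python 3.11.15.

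The code was tested on simulated data: 1000 of 1000 positions were given the right gene, and a planted difference was called in 100 of 100 draws. With equal planted shares a difference was called in 0 of 100 draws. The planted shares were the same in every draw, so this checks the code and not the power for the differences reported here. Named genes are those at the 25 strongest promoter peaks and the 10 strongest divergent ones, up to 4 per list by signal, mdl-1 and mxl-1. Some genes that meet this rule are not reported here. Genes at the edges of the window were named for their distance, and others named outside the rule are said to be so. The promoter peaks, the 31 lists and the 10 words were chosen with earlier results of these data known. Alternatives covered the promoter window, the intron definition, the peak set, each replicate alone, the word window and the definition of divergent promoters.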

Additional observations from a re-analysis of the deposited data

How the results depend on the processing

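Of 102 recomputed values that answer a comparison, 90 kept their direction and side of the threshold or stayed within the set limits, 11 moved and 1 reversed. The share of promoter peaks at divergent promoters was 20.3% with a window of 500 bp upstream and 100 bp downstream, 33% with 2000 and 500 bp, 19.6% when the 5′ ends had to be at most 1000 bp apart, and 50.9% when the nearest 5′ ends on both sides had to be head to head at any distance. The divergent share of the weaker candidates was not recomputed under these settings. The median distance to the nearest 5′ end was 188 bp with the narrower and 324 bp with the wider window, since the window bounds it. In the 557 strongest peaks of the optimal list, fewer by construction, there were 148 promoter peaks with 186 genes, 34 of them in the lists. The share among the strongest regions of both replicates was 86.8% with 2000 regions and 31% with 500. The difference in GAGAGA between divergent and single promoters reversed to 7 percentage points with 25 bp each side, with adjusted p = 0.64 by Fisher's exact test, and the cause was not tested. Among 186 recomputed counts of single gene lists, 44 moved by over 1.5 times or to or from 0. With 1 replicate alone the number of promoter peaks was 315 to 327 and the divergent share 23.8 to 24.5%. No paired analysis was possible because the series has 1 group. The depth is unknown, so no limit from depth can be given. The divergent share against weaker candidates, the hexamer scan, the words GAGACGCAG and ACCGTA, the RNA genes and the replicate shares without close peaks were chosen after seeing the data.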
